A study of Mus musculus with 9 samples.

Results

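Penk, Ecrg4 and Abi3bp encode secreted proteins. All 3 were picked for strong rises in signal with age, with no interval named, in cardiomyocyte cultures grown from mouse embryonic stem cells. All probe sets that the array's annotation assigns to these genes were taken, which gave 6 of the 45101 probe sets on the array: 1 for Penk, 3 for Ecrg4 and 2 for Abi3bp. At gene level they are 3 of the 18193 genes measured, each represented by its brightest probe set. The cells belonged to the synp line, made from R1 embryonic stem cells of a 129X1 x 129S1 background. They carry the puromycin resistance gene PAC driven by the Ncx1 promoter; Ncx1, listed here as Slc8a1, encodes the exchanger of sodium against calcium in heart muscle. Cultures were given FGF10, bFGF, VEGF, BMP4 and Activin A, with puromycin added from day 7, which kills cells that do not use that promoter. All 3 groups share the line, the cytokines and the selection, and differ in age: each of days 10, 20 and 30 has 3 arrays. The study set out to judge how mature such cells become in a dish, and the comparisons here are therefore between ages. All cells came from 1 line. Whether each replicate was a differentiation of its own is not stated. The p-values therefore set differences between ages only against the spread of these arrays within an age, which may be technical variation.

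Penk encodes proenkephalin, a precursor that convertases cut at pairs of basic residues to release the opioid peptides Met-enkephalin and Leu-enkephalin. These act mainly on the delta opioid receptor, and heart muscle is a known site of Penk mRNA outside the nervous system. Ecrg4 encodes augurin, a secreted precursor that is also cut into smaller peptides; it is abundant in the choroid plexus and is often silenced in tumours. Abi3bp encodes a glycoprotein of the extracellular matrix that was named for its binding to the adaptor protein Abi3 and is made by mesenchymal cells.

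The sequence just before the Ecrg4 transcription start is shown because it is the member promoter held in the RefSeq table used here. It covers 250 bases, chr1:43730352-43730601 of GRCm38.p6 on the + strand, with capitals marking a CATTCC and a TGACG.

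Ecrg4 promoter: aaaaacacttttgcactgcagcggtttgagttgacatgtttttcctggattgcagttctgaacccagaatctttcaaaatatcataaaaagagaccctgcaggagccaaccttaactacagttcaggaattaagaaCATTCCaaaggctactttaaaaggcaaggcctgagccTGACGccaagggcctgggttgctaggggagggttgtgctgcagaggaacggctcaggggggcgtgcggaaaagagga

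This stretch held 5 CpG dinucleotides and was 48.4% G or C. CATTCC is the core of the M-CAT element bound by TEAD factors, and TGACG opens the cyclic AMP response element. On either strand, 12.6% of the 32851 promoter windows of the same length held CATTCC and 17.8% held TGACG. The window held no full response element (TGACGTCA, in 1.55% of windows), no AP-1 site (TGANTCA, in 6.75%) and no TATAAA (in 12.4%); a full element also counts as a match to TGACG. These matches describe the letters and are not binding sites shown by these data.

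Penk was far higher at day 20 and day 30 than at day 10. Its probe set, 1427038_at, read 6.35, 5.29 and 4.92 (log2 signal) in day 10 replicates 1, 2 and 3. It read 12.27, 11.03 and 10.76 in those of day 20, and 13.42, 13.22 and 13.09 in those of day 30. No 2 ages overlapped, and replicate 1 was the highest array of its age at all 3 ages. The means were 5.52 ± 0.74, 11.35 ± 0.81 and 13.24 ± 0.16 (SD, n = 3). The difference between day 30 and day 10 was 7.72 (SE 0.45, log2), or 211-fold, and it ranked 2 among all genes. These values chose the gene, so they are a description and carry no test.

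Ecrg4 showed the same order of ages. Its brightest probe set, 1423261_at, read 4.56, 4.51 and 4.39 in the 3 arrays of day 10, 9.88, 9.94 and 8.76 in those of day 20, and 11.43, 11.71 and 11.29 in those of day 30. The means were 4.49 ± 0.09, 9.52 ± 0.67 and 11.48 ± 0.21 (SD, n = 3), again with no overlap between ages. At day 10 the arrays lay within 0.17 of each other, while day 20 replicate 3 stood more than a log2 unit below the other arrays of its age. The difference between day 30 and day 10 was 6.99 (SE 0.29), or 127-fold, with rank 6.

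The other probe sets of Ecrg4 gave different sizes. Probe set 1460049_s_at read 4.09, 3.63 and 3.52 at day 10, 10.18, 10.19 and 9.19 at day 20, and 11.76, 11.95 and 11.70 at day 30, a difference of 8.05 (SE 0.27) between the first and last age. Probe set 1440780_x_at read 3.96, 4.03 and 4.15 at day 10, 5.64, 6.07 and 5.31 at day 20, and 6.92, 7.33 and 7.13 at day 30, a difference of 3.08 (SE 0.19). Both were designed from the same source record, yet the fold between day 30 and day 10 was 266 for the former and 8.45 for the latter. An x in the suffix means that some of a set's probes can also bind other transcripts, and an s that all its probes match several transcripts. The ages did not overlap in any of the 3 probe sets, so the order of the ages was shared and the size was not.

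Abi3bp, too, was lowest at day 10 and highest at day 30. Its brightest probe set, 1427054_s_at, read 4.06, 3.97 and 3.68 at day 10, 9.85, 9.49 and 8.06 at day 20, and 10.42, 11.21 and 10.68 at day 30. The means were 3.90 ± 0.20, 9.13 ± 0.95 and 10.77 ± 0.41 (SD, n = 3). The difference between day 30 and day 10 was 6.87 (SE 0.43), or 117-fold, with rank 8. Its other probe set, 1427053_at, read 3.12, 3.28 and 2.96 at day 10, 8.68, 8.56 and 7.06 at day 20, and 9.18, 10.33 and 9.78 at day 30. That difference was 6.64 (SE 0.44), so the probe sets of this gene lay within 0.23 of each other. Here too day 20 replicate 3 was the lowest of its age in both probe sets. Its day 10 values in 1427053_at were close to the lowest value on any array, 2.77. Whether such values exceed background was not measured, so a fold that starts from them holds on the deposited scale only.

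**Figure D1:**
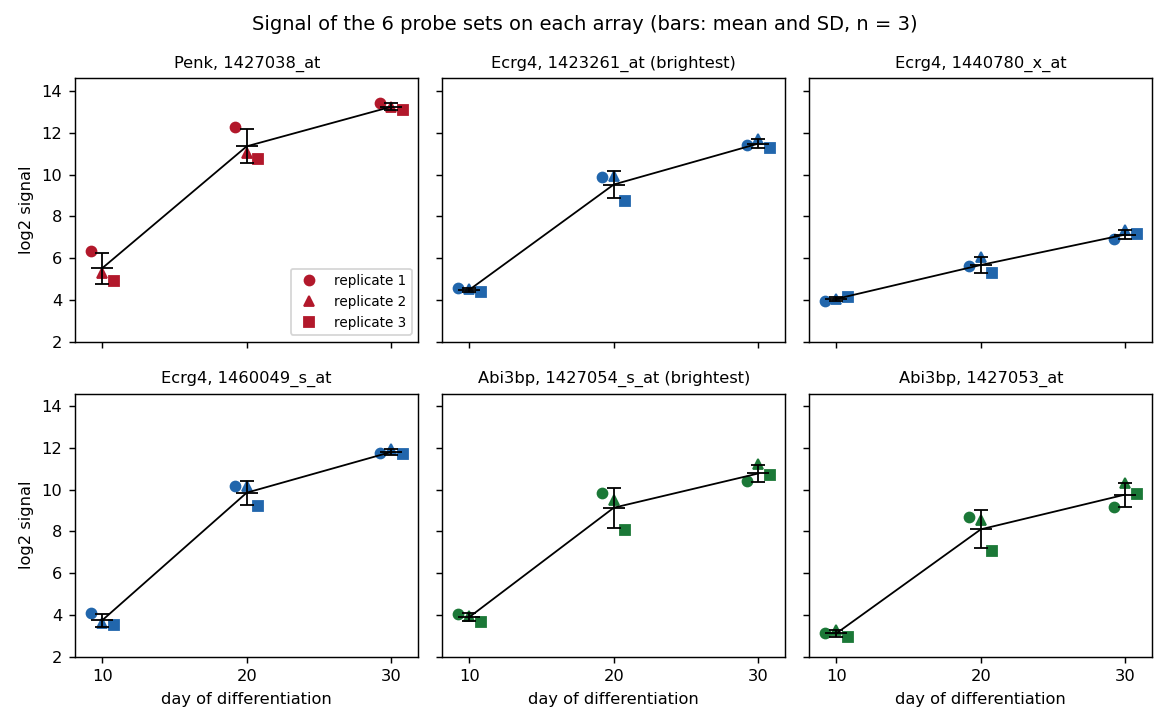
Log2 signal (y axis) of the 6 probe sets of Penk, Ecrg4 and Abi3bp on each array against day of differentiation (x axis); points are arrays, with the marker giving the replicate, and black bars give the mean and SD of 3 arrays. The ages do not overlap in any panel, the line of Ecrg4 1440780_x_at is the flattest, and day 20 replicate 3 is the lowest day 20 array in every panel.

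The larger part of each difference lay in the first interval. From day 10 to day 20 Penk differed by 5.83 (SE 0.45, 57.0-fold), Abi3bp by 5.23 (SE 0.43, 37.6-fold) and Ecrg4 by 5.04 (SE 0.29, 32.8-fold). Their ranks among all genes in that interval were 6, 14 and 17. From day 20 to day 30 Ecrg4 differed by 1.96 (SE 0.29, 3.88-fold), Penk by 1.89 (SE 0.45, 3.71-fold) and Abi3bp by 1.64 (SE 0.43, 3.11-fold), with ranks of 53, 60 and 88. The lowest day 20 array stood above the highest day 10 array by 4.41 for Penk, 4.20 for Ecrg4 and 4.0 for Abi3bp. The gap between the lowest day 30 and the highest day 20 array was 0.82, 1.35 and 0.56 in the same order. Of all genes, 14.5% had every day 20 array above every day 10 array, 11.7% had every day 30 array above every day 20 array, and 2.47% had both, as these 3 genes did; the genes were chosen on the span of these same arrays, so nothing is read from that count.

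The later change was smaller than the earlier one in all 3 genes. The later minus the earlier change was -3.94 for Penk (SE 0.78), -3.60 for Abi3bp (SE 0.74) and -3.08 for Ecrg4 (SE 0.51). The genes had been chosen for strong rises with no interval named, so this contrast is not independent of the choice and is given as a description. A limma test planned for it called 0.478% of all genes and none of these 3, and nothing is read from that; the call changed with the processing. At day 20 Penk had reached 75.5% of its log2 difference between day 10 and day 30, Abi3bp 76.2% and Ecrg4 72.0%. The other probe sets of Ecrg4 split on this point. With 1460049_s_at in its place the later minus the earlier change was -4.16 (SE 0.48), and with 1440780_x_at it was -0.17 (SE 0.33), where 52.7% of the difference had been reached at day 20. With 1427053_at for Abi3bp it was -3.32 (SE 0.77) and 75.0% had been reached. The shares reached at day 20 hold on the deposited scale only, which ran from 2.77 to 14.52. Penk read 13.09 to 13.42 at day 30, and the brightest probe set of Abi3bp 3.68 to 4.06 at day 10. Whether the scale is compressed near its ends was not tested. Over all probe sets but controls, deviations in same-numbered arrays of days 20 and 30 had r of 0.19 to 0.50, against -0.45 to 0.18 in other pairs. Replicate 1 did not show this in Ecrg4 (0.35 at day 20, -0.05 at day 30) or Abi3bp (0.72, -0.35). With the replicate number as a block over these 6 arrays, the SE of the later change was 0.26 for Penk, 0.21 for Ecrg4 and 0.40 for Abi3bp. The differences were the same.

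**Figure D2:**
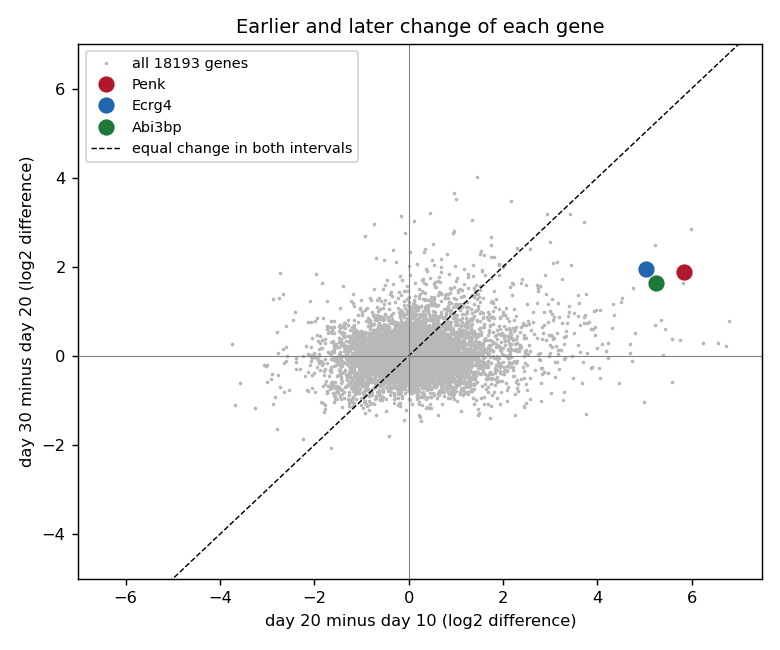
Log2 difference from day 20 to day 30 (y axis) against that from day 10 to day 20 (x axis) for all 18193 genes (grey points), with Penk, Ecrg4 and Abi3bp in colour and a dashed line where both changes are equal. All 3 lie far to the right and below the line, at 5.04 to 5.83 on the x axis and 1.64 to 1.96 on the y axis.

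The genes whose pattern was most like theirs were found by Pearson's r over the 9 arrays, among 9791 other genes whose highest age mean exceeded the median of all genes. Penk was most like Aspn, which encodes the matrix proteoglycan asporin (r = 0.998), followed by the tetraspanin gene Cd82 (0.993), the epoxide hydrolase gene Ephx1 (0.991), the glycosyltransferase gene B3gnt9 (0.990) and Pi15, which encodes a secreted peptidase inhibitor (0.990). Ecrg4 was most like Fmod, the gene of the matrix proteoglycan fibromodulin (0.998), the lysosomal enzyme gene Aga (0.997), Lrrc75b (0.997), the cartilage matrix gene Comp (0.997) and Abi3bp itself (0.996). Abi3bp was most like Pi15 (0.997), Lrrc75b (0.997), Ecrg4 (0.996), Aga (0.995) and Fmod (0.993). Lower but still close likeness was shared by many genes: 1.82%, 2.07% and 1.94% of those searched had r above 0.95 with Penk, Ecrg4 and Abi3bp. The arrays share their ages, and r over them mostly reflects the step between ages; it does not weigh the size either, since Aga differed by 1.54 between day 10 and day 30 against 8.83 for Fmod.

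Within an age, Ecrg4 and Abi3bp deviated together and Penk less so. The correlation of deviations from the age means over the 9 arrays was 0.944 between Ecrg4 and Abi3bp, 0.591 between Penk and Abi3bp and 0.497 between Penk and Ecrg4. Ecrg4 and Abi3bp were both highest in replicate 2 at day 30 and both lowest in replicate 3 at days 10 and 20. Penk was highest in replicate 1 at every age. It lay 0.83, 0.92 and 0.18 above its mean there. Within ages, B3gnt9 (0.937) and Aspn (0.924) followed Penk, and Fmod followed Ecrg4 (0.945) and, less closely, Abi3bp (0.910). In day 20 replicate 3 Ecrg4 deviated by -0.77 and Abi3bp by -1.08, the largest deviation of each gene. That 1 array therefore weighs heavily in the r between them.

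The other opioid precursor genes differed by -0.28 to -0.10, and none of the 3 passed the test between day 10 and day 30. Prodynorphin (Pdyn) measured 4.26 ± 0.03 at day 10 and 4.11 ± 0.05 at day 30 (SD, n = 3), a difference of -0.15 (95% interval -0.32 to 0.01). Pomc, the precursor of beta-endorphin, differed by -0.28 (-0.53 to -0.04, limma adjusted p = 0.10). Pnoc, the precursor of nociceptin, differed by -0.10 (-0.70 to 0.50), and its sign turned without day 10 replicate 2 (0.20) or day 30 replicate 2 (0.04). Of all genes, 11.2% rose and 9.92% fell between day 10 and day 30. Pdyn and Pnoc, like the receptor genes Oprd1, Oprm1 and Oprk1 below, averaged under the array medians (5.48 to 5.56) at every age. Whether such values exceed background was not measured, so a difference not called does not show an expressed gene that stayed level.

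Of 5 opioid receptor genes, 1 fell and none rose between day 10 and day 30, against 9.92% and 11.2% of all genes. The delta receptor gene Oprd1, the main receptor of enkephalins, read 4.04, 4.41 and 4.84 at day 10, 5.08, 4.66 and 5.64 at day 20, and 4.57, 4.22 and 5.73 at day 30. The ages overlapped. Day 30 minus day 10 gave 0.41 (95% interval -0.55 to 1.36, limma adjusted p = 0.55; -0.04 without day 30 replicate 3). The mu receptor gene Oprm1 differed by -0.05 (-0.23 to 0.13) and the kappa receptor gene Oprk1 by -0.37 (-0.68 to -0.07, adjusted p = 0.085; adjusted p = 0.015 without day 10 replicate 3). Ogfr, the opioid growth factor receptor, for which Met-enkephalin is the ligand, differed by -0.33 (-0.62 to -0.04, adjusted p = 0.10; adjusted p = 0.038 without day 10 replicate 3). The nociceptin receptor gene Oprl1 fell by 1.59 (limma adjusted p = 0.042), from 5.72, 7.36 and 5.27 at day 10 to 4.52, 4.61 and 4.45 at day 30. That call was lost without each of 7 of the 9 arrays (highest adjusted p = 0.11), and the difference was -0.97 at its smallest, with 1 array left out. The median difference of the receptor list was -0.33, against -0.03 over all genes. Without day 10 replicate 3 the list had 3 falls, while the calls over all genes went from 3841 to 5084.

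Precursors such as proenkephalin are cut, trimmed and stored by a set of enzymes and granule proteins. Of 15 measured genes for prohormone cleavage, trimming and granules, 4 rose and none fell (median 0.18), against 11.2% and 9.92% of all genes. Cpe, the carboxypeptidase that trims basic residues, rose from 11.50 ± 0.11 at day 10 to 12.32 ± 0.12 at day 30 (SD, n = 3, 0.83, limma adjusted p = 0.0015). Pam, which amidates peptide ends, rose from 11.05 ± 0.34 to 12.55 ± 0.23 (1.51, adjusted p = 0.0023). The granule protein gene Scg2 read 3.86, 3.81 and 3.60 at day 10 and 5.90, 8.45 and 8.02 at day 30, a rise of 3.70 (adjusted p = 0.0062). Ctsl, a protease gene whose product can cut proenkephalin, rose by 0.66 (adjusted p = 0.030), a call lost without each of 4 arrays (highest adjusted p = 0.097).

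Of 5 measured enkephalin peptidase genes, 2 rose and 1 fell (median -0.11), against 11.2% and 9.92% of all genes. Ace, the angiotensin-converting enzyme, rose by 0.81 (SE 0.12, limma adjusted p = 0.0034) and Anpep, aminopeptidase N, by 1.12 (SE 0.21, adjusted p = 0.0084). The cytosolic aminopeptidase gene Npepps fell by 0.40 (adjusted p = 0.045), a call lost without each of 7 arrays (highest adjusted p = 0.14). Dpp3, a dipeptidyl peptidase gene, stood at -0.89 (adjusted p = 0.062). Leaving out day 10 replicate 3 gave -1.27 (adjusted p = 0.00073 in limma). Mme, the enkephalin-cutting neprilysin, which is named here after its values were seen, measured 6.27 at day 10, 4.31 at day 20 and 6.16 at day 30 on average, with no difference called in either direction.

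AP-1 and CREB factors bind the well-studied enhancer of the Penk gene. Of 13 measured, 3 rose and 1 fell between day 10 and day 30 (median 0.58), against 11.2% and 9.92% of all genes. Junb rose by 3.58 (SE 0.66, limma adjusted p = 0.0073). Fos read 8.40, 6.54 and 7.81 at day 10 and 8.99, 12.68 and 13.06 at day 30, a rise of 3.99 (adjusted p = 0.032) that was lost without each of 4 arrays (highest adjusted p = 0.10). Day 30 replicate 1 lay close to the highest day 10 array in Fos. The part of AP-1 and CREB factors in the Penk values was not tested. Fosl2 rose by 1.58 (adjusted p = 0.0495, lost without each of 7 arrays, highest adjusted p = 0.14), and the list had 6 rises without day 30 replicate 1 but 1 without replicate 2 of any age or replicate 3 of day 30. Crem, which encodes a cyclic AMP response modulator, fell by 0.81 (adjusted p = 0.022, lost without each of 2 arrays, highest adjusted p = 0.071).

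For Ecrg4, receptors of innate immunity and scavenger receptors are reported binding partners. Of the 8 measured, 2 rose and none fell (median 0.13), against 11.2% and 9.92% of all genes. Tlr4, the endotoxin receptor gene, read 4.28, 4.21 and 4.18 at day 10, 5.09, 4.87 and 5.07 at day 20, and 5.82, 6.15 and 5.81 at day 30. It rose by 1.70 (SE 0.12, limma adjusted p = 0.00013), with no overlap between ages. Cd36, a scavenger receptor that also takes up fatty acids in heart muscle, rose by 3.45 (SE 0.38, adjusted p = 0.00086). Ly96, a partner of Tlr4, stood at 1.0 (adjusted p = 0.10); leaving out day 10 replicate 1 gave 1.42 (adjusted p = 0.018 in limma). Scarb1 stood at -0.52 (adjusted p = 0.24).

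Genes of the Abi family and the WAVE complex, an actin regulator that contains Abi proteins, were measured beside Abi3bp. Of 10 such genes 4 fell and none rose (median -0.19), against 9.92% and 11.2% of all genes. Abi3 itself, which is named here after its values were seen, stood at 0.30 (limma adjusted p = 0.17). Abi2 fell by 0.92 (SE 0.14, limma adjusted p = 0.0036) and Wasf1 by 1.34 (SE 0.29, adjusted p = 0.014). Cyfip2 fell by 1.29 (adjusted p = 0.027, lost without each of 3 arrays, highest adjusted p = 0.089) and Nckap1 by 0.28 (adjusted p = 0.047, lost without each of 8 arrays, highest adjusted p = 0.14). There were 2 falls when replicate 1 of day 10, or replicate 1 or 2 of day 30, was left out. Among 10 matrix glycoprotein and integrin genes, 4 rose and none fell (median 1.16), against 11.2% and 9.92% of all genes. The tenascin gene Tnxb rose by 1.52 (adjusted p = 0.0012) and Fndc1 by 2.21 (adjusted p = 0.010). The fibronectin gene Fn1 rose by 1.48 (adjusted p = 0.0039), a call lost with its probe sets averaged (1.13, adjusted p = 0.088). The integrin subunit gene Itga8 rose by 2.31 (adjusted p = 0.022, lost without each of 3 arrays, highest adjusted p = 0.072).

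**Figure D3:**
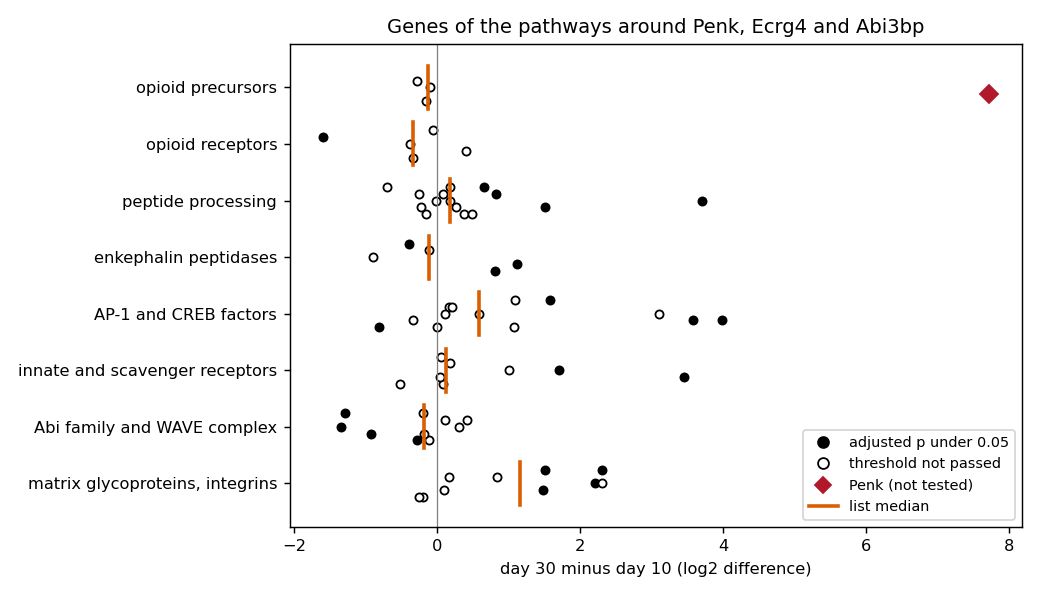
Log2 difference between day 30 and day 10 (x axis) of each measured gene in 8 lists around Penk, Ecrg4 and Abi3bp (rows); filled circles passed a limma adjusted p of 0.05, open circles did not, orange bars are list medians, and the diamond is Penk, which was not tested. Penk lies at 7.72 while the other opioid precursors lie between -0.28 and -0.10.

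Genes beside the members on the chromosome were compared as well, as the nearest 2 measured genes on each side in RefSeq's gene order. Around Penk, Sdr16c5, Sdr16c6, Bpnt2 and 4930423M02Rik differed by -0.05, -0.08, -0.03 and 0.07 between day 30 and day 10, and none passed the test; the signs of all but Sdr16c6 turned when single arrays were left out. Around Ecrg4, Tpp2 fell by 0.52 (limma adjusted p = 0.0033). Fhl2, a heart LIM protein gene, differed by 1.91 (adjusted p = 0.061) and passed without each of 3 arrays (lowest adjusted p = 0.039). Nck2 (-0.55, adjusted p = 0.098, and adjusted p = 0.047 without day 10 replicate 1) and Uxs1 (0.76, adjusted p = 0.21) did not pass. Around Abi3bp, Tmem45a, which encodes a membrane protein, rose by 4.41 (limma adjusted p = 0.00040, SE 0.40) and already stood 3.95 above day 10 at day 20 (adjusted p = 0.0012). Tfg, which lies between Abi3bp and Tmem45a, fell by 0.28 (adjusted p = 0.030, lost without each of 5 arrays, highest adjusted p = 0.093), while Senp7 (0.22) and Trmt10c (-0.19) did not pass.

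Markers of fibroblasts and matrix moved with all 3 genes. Of 22 such genes, 17 rose and none fell from day 10 to day 30 (median 3.57), against 11.2% and 9.92% of all genes. From day 10 to day 20, 12 of the 22 rose, against 7.3% of all genes. Their summed log2 signal ran from 159.9 to 172.4 in the day 10 arrays, from 209.9 to 229.0 at day 20 and from 238.8 to 245.3 at day 30. Col1a1, the main collagen gene of fibroblasts, rose from 6.85 ± 0.71 to 13.13 ± 0.43 (SD, n = 3) and Col3a1 from 10.39 ± 1.15 to 13.88 ± 0.09. Thy1 rose by 3.69 (limma adjusted p = 0.00014), a call kept without each of the 9 arrays. Of the more specific fibroblast genes, Tcf21 rose by 2.07 (limma adjusted p = 0.041, lost without each of 6 arrays, highest adjusted p = 0.12). Pdgfra differed by 1.95 (adjusted p = 0.073, and adjusted p = 0.037 without day 10 replicate 3). In the tendon and cartilage list 9 of 15 genes rose and none fell (median 1.98), with Comp and Fmod foremost, followed by Acan (4.52) and Col2a1 (4.40). That count was 6 without day 30 replicate 1.

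The labelled cell type was checked with 16 cardiomyocyte genes. Myh6 averaged 13.09 to 13.64 and Tnnt2 13.14 to 13.54 over the ages on a scale that ended at 14.52. Casq2, the calsequestrin of the heart, read 5.93, 5.69 and 5.46 at day 10 and rose by 6.16 to day 30 (limma adjusted p = 1.5e-05). Slc8a1, whose promoter drove the selection, differed by -1.13 between day 30 and day 10 (limma adjusted p = 0.073, and adjusted p = 0.021 without day 30 replicate 1). Of the 16 genes, 3 rose and none fell (Casq2, Tnni3 and Pln, median 0.27), against 11.2% and 9.92% of all genes. Without day 10 replicate 3, 7 of the 16 rose. Their summed log2 signal ran from 184.9 to 196.2, 199.3 to 205.2 and 204.3 to 205.7 at the 3 ages. In day 20 replicate 3, the array with the lowest Penk, Ecrg4 and Abi3bp of its age, the fibroblast list averaged 9.54 against 9.97 and 10.41 in the other day 20 arrays, and the cardiomyocyte list 12.82 against 12.46 and 12.52. At day 10 the order was not shared: replicate 2 had the highest fibroblast average, 7.83, while Penk, Ecrg4 and Abi3bp were highest in replicate 1. The part of other cell types in the results for Penk, Ecrg4 and Abi3bp was not tested, and in such bulk samples a change in the share of cells of a type and a change in RNA per cell cannot be told apart.

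**Figure D4:**
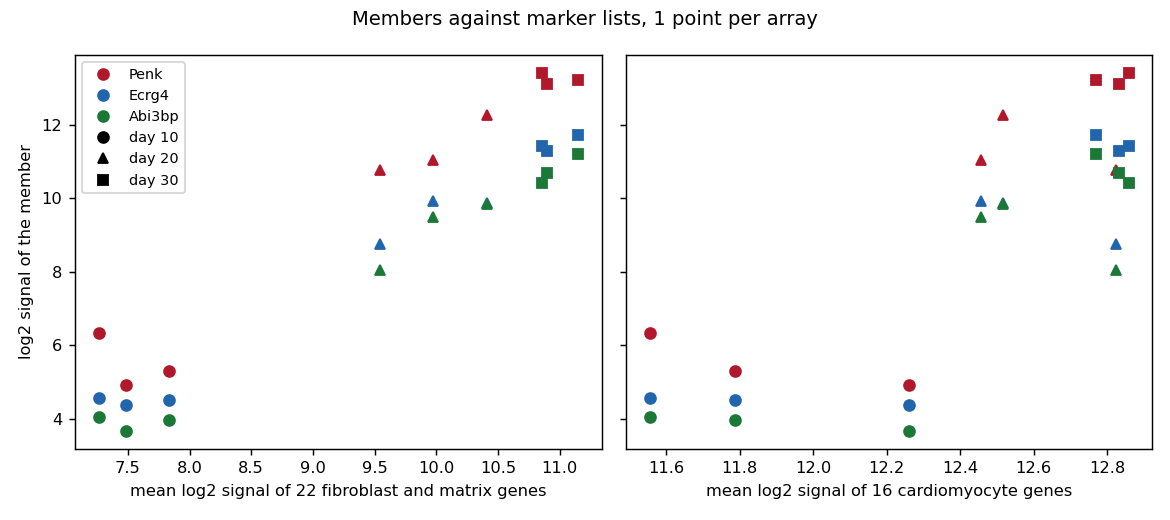
Log2 signal of Penk, Ecrg4 and Abi3bp (y axis, colours) on each array against the mean log2 signal of 22 fibroblast and matrix genes (left) or 16 cardiomyocyte genes (right); marker shapes give the age. All 3 genes and the fibroblast mean are lowest at day 10 and highest at day 30. The cardiomyocyte mean is also lowest at day 10 (11.56 to 12.26). Its ranges at day 20 (12.46 to 12.82) and day 30 (12.77 to 12.86) overlap. At day 20 the array with the lowest fibroblast mean, 9.54, has the highest cardiomyocyte mean, 12.82.

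Lists for other cell types were counted in the same way, where 11.2% of all genes rose and 9.92% fell. Of 13 neuron and neuroendocrine genes, which mark the tissues where Penk is most familiar, 1 rose and 4 fell (median -0.18). Dbh, the noradrenaline synthesis gene, rose by 1.07 (limma adjusted p = 0.0033), Gap43 fell by 1.97 (adjusted p = 0.014, lost by a narrow margin without day 30 replicate 2) and Nefl by 2.04 (adjusted p = 0.023, lost without each of 5 arrays, highest adjusted p = 0.074). Leaving out a day 30 array gave 1 (replicate 1), 0 (replicate 2) or 1 (replicate 3) falls in that list. Leaving out a day 10 array gave 1, 2 or 6 in the same order. Dbh was joined by another rise when replicate 3 of day 10 or replicate 2 of day 30 was left out. In the smooth muscle list 4 of 12 rose and 2 fell, in the endothelial list 1 and 1 of 10, in the epicardial list 0 and 1 of 10, and in the blood list 1 and 0 of 7. The endothelial, epicardial and blood counts are small and lie near the shares over all genes, so nothing is read from them. Smooth muscle had 2 rises when day 30 replicate 3 was left out. Endothelial falls numbered 5 when day 10 replicate 1 was left out and 0 when day 10 replicate 2 or day 30 replicate 1 was. The epicardial fall was lost when replicate 2 or 3 of day 30 was left out, and 1 rise appeared in the latter case.

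The arrays were comparable in overall level, with medians from 5.48 to 5.56 (log2 signal), and their number limits the precision. In limma 21.1% of all genes were called between day 30 and day 10, 14% between day 20 and day 10 and 0.335% between day 30 and day 20. Arrays of day 10 differed most among themselves: their genes had a median SD of 0.187, against 0.130 for day 20 and 0.137 for day 30. The poly-A control probe sets, which report spiked RNAs added before labelling, averaged 4.90 and 5.05 in day 10 replicates 3 and 2 and 5.63 to 6.33 in the other arrays. Their part in the differences between day 10 and the later ages was not tested.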

How the data were processed

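Total RNA of 9 samples was labelled with a 3 prime IVT kit, per the labels' protocols. The authors deposited 1 value per probe set and array, used here as log2 signal; neither normalization nor log base is given in the sources used here, and log2 was inferred from the range (2.77 to 14.52). Probe sets were named through the platform annotation, and 34741 of 34945 with 1 symbol matched RefSeq's GRCm38.p6 table by gene identifier. The brightest probe set stood for a gene. A mean per age was fitted over all 9 arrays and 18193 genes with limma 3.58.1 in R 4.3.3 (two-sided, Benjamini-Hochberg, threshold 0.05) and tested on simulated data; no gene was filtered out. Between days 20 and 30, 3 of 3 same-numbered pairs had deviations correlated above 0.1 (0.19 to 0.50, against -0.45 to 0.18 in other pairs). Between day 10 and either later age, 1 of 6 did. The members, the 16 lists (184 genes) and the tests were chosen with earlier results of these data known. Named are the members, their 5 likest genes, 2 neighbours a side, up to 4 genes a list by adjusted p, all opioid precursors and receptors, and fixed markers (Col1a1, Col3a1, Tcf21, Pdgfra, Myh6, Tnnt2, Slc8a1). Alternatives were other normalizations, filters, probe sets, weights, priors, blocks and left-out arrays. Scanner files and protein sequences were not used here.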

Additional observations from a re-analysis of the deposited data

How the results depend on the processing

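For Penk, Ecrg4 and Abi3bp, every difference between ages and the later minus the earlier change kept its direction under all alternatives run. For the differences this was fixed in advance when arrays were left out, because the ages did not overlap. A variance trend, a replicate block, a dim-gene filter or a fit of only the days compared leaves the estimates unchanged. Nothing is read from the kept direction. With single arrays left out, the later minus the earlier change ran from -4.54 to -3.02 for Penk, from -3.85 to -2.67 for Ecrg4 and from -4.67 to -2.88 for Abi3bp. In the planned limma test, from which nothing is read, its adjusted p ran from 0.029 to 0.25 for Penk, from 0.018 to 0.22 for Ecrg4 and from 0.039 to 0.35 for Abi3bp with single arrays left out. The lowest for Penk and Abi3bp came without day 10 replicate 3, that for Ecrg4 without day 20 replicate 3, and the highest for all 3 without day 20 replicate 2. It passed with array weights for Penk (-3.82), Ecrg4 (-2.89) and Abi3bp (-3.28), where the calls over all genes went from 87 to 1912. For Ecrg4 (-3.08) it also passed with dim genes left out or with a variance trend. Nothing is read from any such pass, since the contrast is not independent of the choice of genes. With the replicate block over all 9 arrays, Penk (-3.94) and Ecrg4 (-3.08) passed, and 33 genes in place of 61 were called from day 20 to day 30; with the block over days 20 and 30 alone, added after the data were seen, 82 were. Probe sets of Ecrg4 were exchanged after the data were seen. With 1460049_s_at the later minus the earlier change was -4.16, the difference to day 30 was 8.05 and that to day 20 was 6.11. With 1440780_x_at the differences were 3.08 (day 10 to 30), 1.62 (day 10 to 20) and 1.46 (day 20 to 30), and averaging all its probe sets gave 6.04 and 4.25 for the first and second of these.

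Counts of called genes depended more on the settings. For the later minus the earlier change, 87 genes were called, 1912 with array weights, and 0 (without day 20 replicate 2) to 1725 (without day 10 replicate 3) with single arrays left out. For day 30 against day 10 3841 genes were called, against 6126 with array weights. Single arrays left out gave 2572 (without day 30 replicate 3) to 5084 (without day 10 replicate 3), the contrast that the list counts use. Fitting every probe set in place of genes called 6813 probe sets. For day 20 against day 10 the counts were 2545, 5612 with array weights, 1326 with only the days compared, and 1014 (without day 20 replicate 2) to 4646 (without day 10 replicate 3); over probe sets, 4062 were called. For day 30 against day 20 they were 61, 311 with array weights, 14 with dim genes left out, and 5 (without day 20 replicate 3) to 160 (without day 10 replicate 3). The cause was not tested. With probe sets averaged, some limma calls between day 30 and day 10 given above were lost. These were Fn1 (adjusted p = 0.088), Ctsl (0.096), Tcf21 (0.073), Fosl2 (0.071), Npepps (0.26) and Tfg (0.23). Signs turned for 8 named genes that were not members and had not passed: Bpnt2 (0.0117 with quantile normalization, 0.0707 with probe sets averaged, 0.0659 without day 10 replicate 1), Senp7 (-0.12) and Tnnt2 (-0.11) with probe sets averaged, Pnoc (0.20 and 0.04 without day 10 or day 30 replicate 2, and -0.36 at its lowest), Csf1r (-0.04, -0.0567, -0.03 and -0.0023 without day 10 replicate 2 or 3 or day 30 replicate 2 or 3, and 0.207 at its highest), 4930423M02Rik (-0.0048 without day 10 replicate 3 and 0.114 at its highest), Sdr16c5 (0.0627 without day 30 replicate 1) and Oprd1 (-0.0379 without day 30 replicate 3 and 0.72 at its highest). With 9 arrays and no scanner files, signal over background could not be judged, which limits the values of the members at day 10.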
